A study of Mus musculus with 8 samples.

Results

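The genes described here are the collagen chains and 10 further genes of the collagen matrix, measured in single cells of mouse tumors. Every symbol made of Col, a number, the letter a and a second number was taken, which gave 44 chain genes, together with Sparc, Fbln2, Bgn, Dcn, Lum, Postn, Lox, Loxl2, Serpinh1 and Plod2. These are 54 of the 24787 genes in the count matrices. Each was followed across tumor cells, cells gated on Dcn and Col3a1, and immune cells and across 3 treatments.

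Collagens are triple helices wound from 3 α chains. Fibrillar chains (Col1a1, Col1a2, Col3a1, Col5a1, Col5a2, Col5a3) form the tensile fibers of connective tissue, network chains of the Col4 genes form basement membranes, and the Col6 chains form beaded filaments around cells. Before secretion a chain is hydroxylated by enzymes such as Plod2 and its helix is held by the chaperone Serpinh1 (HSP47), and outside the cell lysyl oxidases (Lox, Loxl2) cross-link the fibers while the small proteoglycans Dcn, Lum and Bgn bind them. In carcinomas the fibroblasts of the stroma are known as the main source of fibrillar collagen.

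The cells came from MC38 tumors, which grow from a colon carcinoma line of C57BL/6 mice, collected 24 hours after injection. The 3 groups received saline (3 tumors), free R848 (3 tumors), an agonist of Toll-like receptors 7 and 8 also named resiquimod, or medium R848-BPD (2 tumors), a bottlebrush polymer prodrug that releases R848 at a medium rate. By the study's methods, C57BL/6J mice were female and 8 weeks old, and tumors of this line were placed under the skin. Each tumor was digested, CD45+ and CD45- cells were separated and then loaded for each mouse at 9:1 on a Seq-Well array, so the proportions of cell types are not those of the tissue. The recovered cells also differed between tumors, with tumor cells at 4.91% to 30.3% of kept cells. The labels name no other genotype or agent for any group. The dose given to the sequenced mice is not in the labels.

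Depth ranged from 5867590 to 12422614 UMIs (unique molecular identifiers, each 1 captured transcript) per tumor, and 9886 of 10791 barcodes were kept. Kept cells were sorted by their own counts: tumor cells held at least 5 UMIs of Mtap plus Rhox5 and 0 of Ptprc (1277 cells, 62 to 370 per tumor), Dcn/Col3a1-gated cells at least 2 of Dcn and at least 2 of Col3a1 with at most 2 of Mtap plus Rhox5 (68 cells), and immune cells at least 1 of Ptprc with at most 2 of Mtap plus Rhox5, outside the Dcn/Col3a1 gate (7324 cells). The remaining 1217 cells passed none of these. Median UMIs per cell were 12340 in tumor cells, 7200.5 in Dcn/Col3a1-gated cells and 5061 in immune cells. Of the kept cells, 59 had a barcode that occurred in more than 1 library, none of them in the tumor or Dcn/Col3a1 gate. Counts were summed over the cells of a kind within each tumor, so that the tumor is the replicate. A level is given as CPM, UMIs of the gene per 1000000 UMIs of that kind of cell in that tumor with TMM scaling. Because a UMI counts a captured molecule and not its length, no division by length was made. Levels are compared within a gene, and where UMI counts or shares of different genes stand side by side they describe capture and are no ratio of expression. In such sums fewer cells that express a gene and less RNA per cell cannot be told apart.

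The gates were checked against other markers. The tumor cells held 195 CPM of Fam159b, an MC38 marker that the gate did not use, but Krt7, Krt8, Krt18, Cldn4 and Cldn7 were at 0 UMIs and Krt19 and Epcam at 1 UMI each, so the epithelial markers of the list were at or near 0 in them. The study named MC38 cells on these same samples by markers that include Mtap, Rhox5, Col6a2 and Fam159b, and the levels of Col6a2 and Fam159b in them are therefore not independent evidence of what they are. Of the 68 Dcn/Col3a1-gated cells, 48 held at least 5 UMIs of Col1a2, with a median of 91.5, and the other 20 held at most 1. Lox was found in 45 of the 48 and Postn in 35, and neither was found in any of the 20. Of the 48, 46 held Col5a2 and none held Fam159b, whereas 3 of the 20 held Col5a2 and 2 held Fam159b. The 20 cells also held fewer UMIs, with a median of 3577.0 against 7832.5, and more Col6a1, at 2335 against 1019.5 UMIs per 1000000 UMIs. Rhox5, a gene of the tumor-cell gate, was found in 14 of the 20 and in 1 of the 48, at 187 and 2.08 UMIs per 1000000 UMIs, against 875 in tumor cells and 10.5 in immune cells, although the gate allows at most 2 UMIs of Mtap plus Rhox5. Mtap was at 59.1 and 45.7. Whether some of the 20 are tumor cells with few UMIs of these genes was not tested. The gate thus held cells of unlike content, 10 of the 14 saline cells, 6 of the 13 free R848 cells and 4 of the 41 medium R848-BPD cells being poor in Col1a2, and its cells are called Dcn/Col3a1-gated cells rather than fibroblasts. This bears on every level, share and fold change of these cells. Of the Col1a2-rich cells, 2, 2 and 0 came from the saline tumors, 2, 4 and 1 from the free R848 tumors, and 10 and 27 from the medium R848-BPD tumors. The split by Col1a2 was drawn after its values were seen, and it is used without a test.

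**Figure D1:**
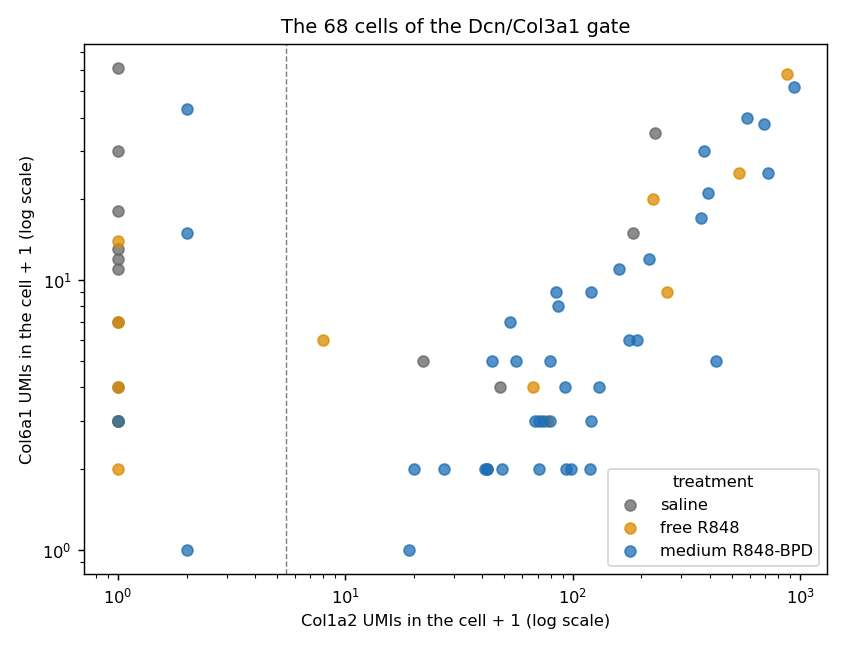
UMIs of Col1a2 (x axis) and Col6a1 (y axis) in each of the 68 Dcn/Col3a1-gated cells, both plus 1 on log scales, colored by treatment, with a dashed line at the Col1a2 split. The 48 cells right of the line held at least 7 Col1a2 UMIs and the 20 left of it at most 1.

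Before the levels, the upstream sequence of 6 genes is shown, because they span the range described below: Col6a2 and Serpinh1 were among the genes with the nearest levels in tumor cells and Dcn/Col3a1-gated cells, Col5a3 lay between, and Postn, Bgn and, from the gate itself, Col3a1 had far more in the Dcn/Col3a1-gated cells. Each sequence is the 150 bases before the start of the RefSeq transcript in GRCm38.p6, read 5′ to 3′ on the gene's strand, and capitals mark 3 motifs on either strand. These are TATAAA (read as TTTATA on the other strand), the sequence CCAAT (or ATTGG), and the GC box GGGCGG (or CCGCCC), with overlapping matches counted.
Col3a1 (chr1:45311388-45311537, plus strand): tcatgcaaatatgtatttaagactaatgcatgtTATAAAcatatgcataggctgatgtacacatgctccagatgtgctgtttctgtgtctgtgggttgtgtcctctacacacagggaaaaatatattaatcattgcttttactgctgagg
Postn (chr3:54360957-54361106, plus strand): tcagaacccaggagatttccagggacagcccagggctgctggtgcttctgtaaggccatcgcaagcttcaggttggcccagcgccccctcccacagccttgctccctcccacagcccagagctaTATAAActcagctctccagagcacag
Bgn (chrX:73483451-73483600, plus strand): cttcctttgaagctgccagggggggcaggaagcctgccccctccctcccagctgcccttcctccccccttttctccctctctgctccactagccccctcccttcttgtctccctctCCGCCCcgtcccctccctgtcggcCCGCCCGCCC
Col5a3 (chr9:20815068-20815217, minus strand): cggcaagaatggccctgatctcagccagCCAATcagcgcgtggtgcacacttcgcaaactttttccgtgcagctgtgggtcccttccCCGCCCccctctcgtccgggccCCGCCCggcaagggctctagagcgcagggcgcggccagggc
Col6a2 (chr10:76623631-76623780, minus strand): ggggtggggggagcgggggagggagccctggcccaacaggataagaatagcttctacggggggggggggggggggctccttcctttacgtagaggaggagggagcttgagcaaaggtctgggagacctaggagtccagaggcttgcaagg
Serpinh1 (chr7:99353240-99353389, minus strand): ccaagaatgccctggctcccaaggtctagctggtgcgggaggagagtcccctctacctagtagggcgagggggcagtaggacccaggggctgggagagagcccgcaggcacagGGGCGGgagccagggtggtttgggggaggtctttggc
Col3a1 and Postn each held 1 TATAAA and Bgn held 3 GGGCGG. Col5a3 held 1 CCAAT and 2 GGGCGG, Serpinh1 held 1 GGGCGG, and Col6a2 held none of the 3. The windows of Postn and Col6a2 belong to the second listed start of each gene, and the others to the first. Over the first listed start of 27025 RefSeq genes, in the same 150 bases, TATAAA occurred in 8.08%, CCAAT in 25.3% and GGGCGG in 29.0%. The promoter set used here held such a window for 40 of the 54 matrix genes, of which 4, 7 and 22 held the motifs in that order. Windows of Col1a1, Col1a2, Col5a2 and Dcn, among others, were missing or lay far from the annotated start and are not shown. These are letter matches in 1 window and describe no bound factor.

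All 54 genes were detected in the kept cells, though 21 of them by fewer than 100 UMIs. A mean of at least 50 CPM over the 8 tumors was reached by 20 genes in tumor cells, by 30 in Dcn/Col3a1-gated cells and by none in immune cells, where the highest mean was 18.8 CPM (Col14a1). Of the 31 genes that reached it anywhere, 19 did so in both tumor and Dcn/Col3a1-gated cells, 11 in the Dcn/Col3a1-gated cells alone and 1, Col7a1, the anchoring fibril chain of skin and mucosa, in tumor cells alone. The other 23 genes had between 3 and 381 UMIs in all, and among them were the cartilage chains Col2a1, Col9a1, Col10a1 and Col11a1 and the hemidesmosome chain Col17a1.

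Summed over all 54 genes, the matrix took 0.562% to 1.20% of the UMIs of tumor cells (median 0.733%), 1.84% to 12.9% of those of Dcn/Col3a1-gated cells (median 8.05%) and 0.0107% to 0.0165% of those of immune cells. The gate genes Dcn and Col3a1 are part of these sums. Over the other 52 genes the shares were 0.488% to 0.953%, 1.09% to 8.52% and 0.00975% to 0.0152% in the same order, and the ranges of the 3 kinds of cell did not overlap in either sum. Because tumor cells were so much more numerous, they still held most of the UMIs of several genes in the kept cells, 75.5% for Col6a1, 66.6% for Dcn and 61.5% for Sparc, against 31.2% for Col3a1 and 14.7% for Col1a2.

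**Figure D2:**
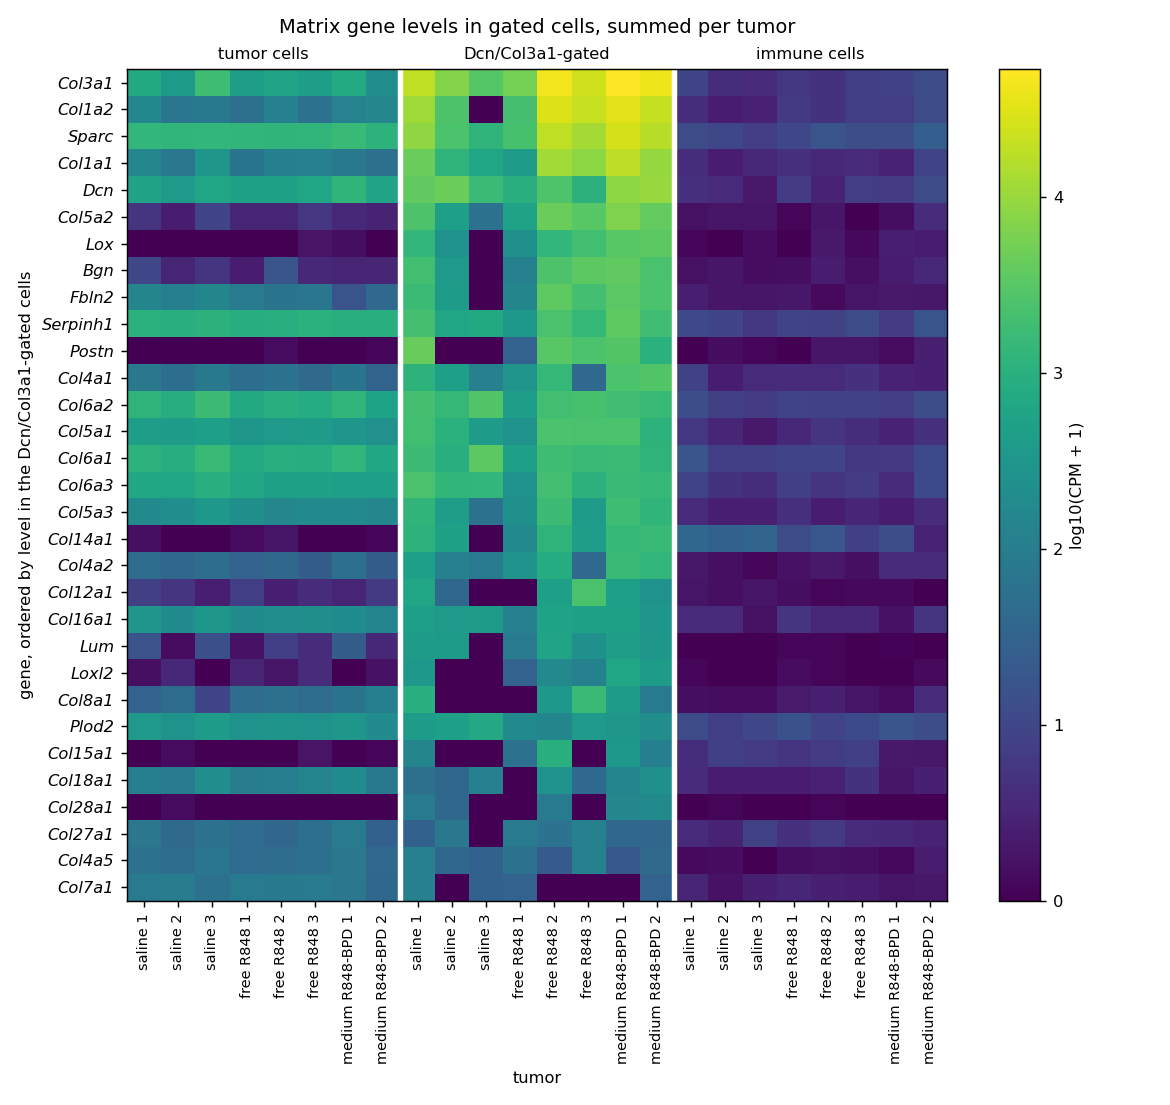
Level of the 31 matrix genes with a mean of at least 50 CPM in some kind of cell (y axis), in each tumor (x axis) and kind of cell, as log10 of CPM plus 1 by color. Dcn/Col3a1-gated cells and tumor cells shared the Col6 chains, Sparc and Serpinh1, and immune cells reached at most 38.1 CPM, for Col14a1.

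Tumor cells held a wide set of matrix genes above immune cells, the type I chains Col1a1 (log2 fold change 4.62, SE 0.32) and Col1a2 (3.88, SE 0.27) among them. Against immune cells of the same tumors, 21 of 21 tested genes (Dcn and Col3a1 left out, as gate genes) were higher in tumor cells by edgeR's quasi-likelihood test with the tumor as a block and Benjamini-Hochberg adjustment over all genes, where 40.1% of all genes were called higher in tumor cells. Of the 21, Col11a2 passed in 10 of 15 alternatives and was lost with the stricter gates (edgeR adjusted p = 0.0690) and without free R848 tumor 2 (0.0835) or 3 (0.107) or saline tumor 1 (0.0678) or 3 (0.0705). The median log2 fold change of these genes was 5.54, against -0.02 over all genes tested. The filter keeps a gene that is high enough in 1 kind of cell, so Col4a5 (20 UMIs in immune cells) and Fbln2 (43) entered through their tumor-cell level. Col14a1 (5 UMIs in tumor cells and 899 in immune cells) and Col15a1 (3 and 193), which ran the other way, did not pass the filter. The count and the median therefore lean toward genes higher in tumor cells and are a description. Most other listed genes of collagen processing were higher in the tumor cells too, 18 of 21 with 1 lower, among them the prolyl isomerase Fkbp10 (log2 fold change 6.38, SE 0.21, adjusted p = 5.8e-12) and Pcolce, which aids cleavage of the procollagen end (6.35, SE 0.13, adjusted p = 1.4e-13). Of 20 tested matrix glycoproteins 17 were higher and 3 lower, Tgfbi (-8.23) and Thbs1 (-7.81) among the latter. Collagen receptors were split, with 3 of 9 higher and 4 lower in tumor cells: Mrc2, the endocytic collagen receptor of mesenchymal cells, was higher (5.67), while the macrophage receptor Mrc1 (-8.16) and the inhibitory collagen receptor Lair1 (-8.06) were lower. Of the TGF-beta pathway, known to drive collagen transcription, 6 of 16 were higher and 7 lower, and of 6 proteoglycans 4 were higher and 2 lower.

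The microfibrillar Col6 chains were among the members with the largest difference from immune cells. Col6a1 (chr10:76708792-76726168, GRCm38) was at 1144, 864 and 1509 CPM in the tumor cells of the saline tumors, at 780.4, 965 and 869 in those of the free R848 tumors, and at 1322 and 643 in those of the medium R848-BPD tumors. Its highest immune value was 16.4 CPM, far below the lowest tumor-cell value (log2 fold change 6.39, SE 0.23, adjusted p = 1.1e-11). Col6a2, the neighboring chain gene on the same strand, followed the same order of extremes, with its highest value in saline tumor 3 (1766 CPM) and its lowest in medium R848-BPD tumor 2 (547 CPM). Col6a3, the longest chain of the filament, ranged from 459 to 965 CPM.

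Sparc, a collagen-binding matricellular protein, and Serpinh1, the collagen chaperone, varied little among tumors. Sparc was at 1355, 1293 and 1343 CPM after saline, 1280.0, 1219 and 1304 after free R848, and 1512 and 1152 after medium R848-BPD. Serpinh1 lay between 869 and 1067 CPM in the tumor cells of all 8 tumors, and all 3 groups overlapped for both genes. Dcn, which was not used to select tumor cells, averaged 609 ± 271 CPM (SD, n = 8) in them. The fibrillar chains Col5a1 and Col5a3 averaged 360.2 ± 71.4 and 199 ± 59.0 CPM, and Col16a1, a fibril-associated chain, 217 ± 59.3 CPM.

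Neighboring genes are given here with their UMIs. Col5a2 lies next to Col3a1 on chromosome 1 with a gap of 24615 bases, and tumor cells held 48 UMIs of Col5a2 and 9434 of Col3a1, while Dcn/Col3a1-gated cells held 1760 and 16336. Col4a5 and Col4a6 are read in opposite directions from starts 1309 bases apart on the X chromosome, and tumor cells held 935 and 4 UMIs of them. By contrast Col4a1 and Col4a2, whose annotated starts overlap by 22 bases on opposite strands of chromosome 8, were both present, at 962 and 645 UMIs in tumor cells and 855 and 471 in the Dcn/Col3a1-gated cells. Lum and Dcn, both small leucine-rich proteoglycans on chromosome 10, had 119 and 10792 UMIs in tumor cells.

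Matrix genes differed in how they were spread over single tumor cells. After each cell was thinned to 1000 UMIs, Sparc was detected in 65.5% ± 5.47 of tumor cells (SD, n = 8 tumors), Serpinh1 in 58.9% ± 3.07, Col6a1 in 50.1% ± 7.76, Dcn in 35.3% ± 9.57 and Col3a1 in 22.7% ± 11.9. At full depth the means were 97.1%, 98.0%, 90.1%, 80.6% and 44.7%. In immune cells the thinned shares of Sparc and Col6a1 were 1.37% and 0.781%. The Fano factor of the thinned counts, variance over mean and 1 for counting error alone, had a median over tumors of 5.12 for Col3a1 (2.43 to 11.0), 2.17 for Col6a1 (1.55 to 2.66), 1.82 for Dcn (1.49 to 2.17), 1.49 for Sparc (1.00 to 2.28) and 1.13 for Serpinh1 (0.963 to 1.71). Col3a1 thus varied most of these 5 and Serpinh1 was close to counting error. Tumor cells with Col3a1 also held Col1a1, the chain of type I collagen, more often, in a median of 24.7% against 5.14% of those without it, and in 8 of 8 tumors. Col6a2 was found in 64.3% of tumor cells with Col6a1 and 31.4% of those without, again in 8 of 8 tumors. Col3a1 was less frequent in cells with the MC38 marker Fam159b than in those without in 8 of 8 tumors, with medians of 9.41% and 20.5%. The part that cells of other types or doublets take in the Col3a1-rich tumor cells was not tested.

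The Dcn/Col3a1-gated cells held far more of the fibrillar collagens than tumor cells did. Of 21 testable genes with the gate genes left out, 16 were higher in them than in tumor cells of the same tumors and none was lower, with 11.0% of all genes called higher in that comparison (edgeR quasi-likelihood test, tumor as a block, the 5 tumors with at least 5 such cells: saline 1 and 3, free R848 2 and both medium R848-BPD tumors). The median log2 fold change was 2.32 against -0.26 over all genes. DESeq2 also called 16 of the 21. Leaving out 1 tumor at a time gave 13 to 24 genes, the 24 without saline tumor 3, whose 5 gated cells held no Col1a2-rich cell. A stricter gate gave 11.

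**Figure D3:**
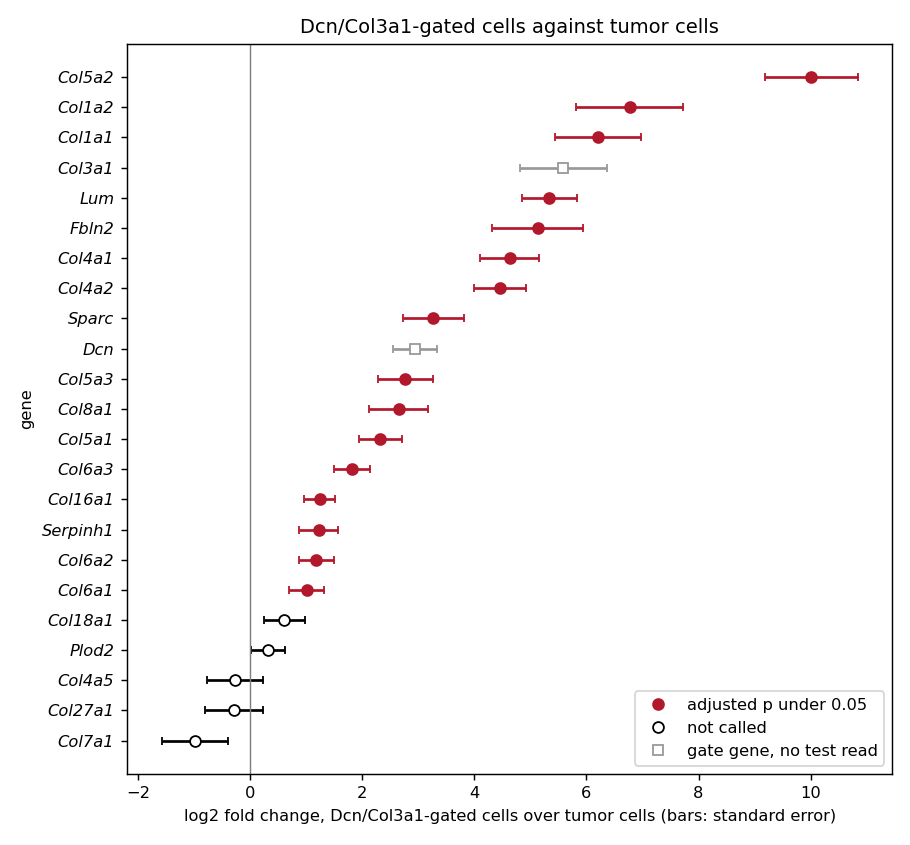
Log2 fold change of each tested matrix gene in Dcn/Col3a1-gated cells over tumor cells (x axis), with its standard error as a bar. Filled points passed an adjusted p of 0.05, open points did not, and the grey squares are the gate genes Dcn and Col3a1, for which no test is read. Col5a2 lies farthest right at 10.01, and Col7a1, Col27a1 and Col4a5 lie left of 0 without passing.

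Among the tested genes outside the gate, Col5a2, Col1a2 and Col1a1 had the largest fitted differences, while other fibrillar chains such as Col5a1 (2.32, SE 0.38) differed less. Col5a2, a chain of the type V collagen that nucleates fibrils, was at 1.41 to 8.73 CPM in tumor cells and at 56.9 to 6540.5 CPM in the Dcn/Col3a1-gated cells (log2 fold change 10.01, SE 0.83, adjusted p = 1.1e-09). With 48 UMIs in all tumor cells, it entered this test through the gated cells, and the size of its fold is a description. Col1a2 in the gated cells was at 11353, 2583 and 0 CPM after saline, at 2155, 29427 and 21172 after free R848, and at 33147 and 20658 after medium R848-BPD, against 54.8 to 160.2 CPM in tumor cells. The 0 is saline tumor 3, and in the other 7 tumors the gated cells exceeded every tumor-cell value (6.77, SE 0.95, adjusted p = 6.1e-06). Col1a1 followed, at 413 to 18088 CPM against 53.5 to 320.2 (6.20, SE 0.77, adjusted p = 1.0e-06). In pooled cells, the tumor-cell level was 1.20% of the gated-cell level for Col1a1, 0.657% for Col1a2 and 0.0855% for Col5a2.

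Of the small proteoglycan and matricellular members, Lum, Fbln2 and Sparc were tested, with the gate gene Dcn left out. Lum (5.34, SE 0.49) and Fbln2, a fibulin that bridges matrix proteins (5.13, SE 0.81), were higher in the gated cells, as was Sparc (3.27, SE 0.55). Sparc reached 25736 CPM in medium R848-BPD tumor 1, and its lowest value, 1194 CPM in saline tumor 3, lay within the tumor-cell range of 1152 to 1512. Of the basement membrane chains, Col4a1 (4.63, SE 0.53) and Col4a2 (4.46, SE 0.46) were higher. Col4a5 (-0.28, edgeR adjusted p = 0.718) and Col18a1 (0.61, edgeR adjusted p = 0.230) did not pass. Bgn averaged 1795 CPM in the gated cells and 5.03 CPM in tumor cells, and was not among the genes tested.

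Some matrix genes were nearly absent from tumor cells. Lox, which oxidizes collagen lysines, and Postn, a matricellular protein of activated fibroblasts, had 2 UMIs each in 1277 tumor cells, against 1084 and 857 in 68 Dcn/Col3a1-gated cells. Loxl2 had 23 against 158. The fibril-associated chains Col12a1 and Col14a1, unlike Col16a1 of the same class, had 81 and 5 UMIs in tumor cells and 195 and 537 in the gated cells. Col28a1 had 1 and 53. Apart from Col16a1, these genes did not pass the filter on low counts in this comparison, and so their counts are a description.

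For a second set of genes the tumor-cell level was closer to that of the gated cells. The pooled tumor-cell level was 86.0% of the gated-cell level for Col18a1, the basement membrane chain that yields endostatin, 72.6% for Col6a1, 60.6% for Col6a2, 60.4% for Col16a1, 56.4% for Serpinh1 and 45.2% for Col6a3. The fitted differences all passed except that of Col18a1, at 1.01 (SE 0.31, adjusted p = 0.0184) for Col6a1, 1.18 (SE 0.31, adjusted p = 0.00656) for Col6a2, 1.22 (SE 0.35, adjusted p = 0.0110) for Serpinh1, 1.24 (SE 0.28, adjusted p = 0.00158) for Col16a1 and 1.82 (SE 0.32, adjusted p = 1.4e-04) for Col6a3. Col16a1 and Col6a3 passed in all 15 alternatives run. The stricter gates ended the calls of Col6a1 (edgeR adjusted p = 0.0897), Col6a2 (0.0625) and Serpinh1 (0.143). So did leaving out free R848 tumor 2 for Col6a1 (0.0706) and Serpinh1 (0.0631), medium R848-BPD tumor 1 for Serpinh1 (0.114) and medium R848-BPD tumor 2 for Col6a1 (0.0939) and Col6a2 (0.0733), and no filter on low counts for Col6a1 (0.0709). For Col18a1 (0.61, SE 0.36), Plod2 (0.32, SE 0.30), Col4a5 (-0.28, SE 0.50), Col27a1 (-0.29, SE 0.52) and Col7a1 (-0.99, SE 0.59) no difference passed, at adjusted p of 0.230, 0.451, 0.718, 0.728 and 0.230. With the Col1a2-rich cells alone, Col6a1 in tumor cells was 88.9% and Col6a2 69.0% of the level in those cells, and Col7a1 had no UMI in the 48 cells.

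Other listed matrix genes split the same way, in a comparison where 11.0% of all genes were called higher and 1063 of 7108 lower. Of 19 processing genes 13 were higher and none lower in the gated cells, with Bmp1, the procollagen C-proteinase, at 5.03 (SE 0.44) and Creb3l1, a collagen transcription factor, at 3.73 (SE 0.42). Of 17 glycoproteins 12 were higher, with Tnc at 8.81 (SE 0.95), and 1 was lower, Smoc1 (-8.17, SE 2.14, adjusted p = 0.00694). Of 16 TGF-beta pathway genes 7 were higher, led by the receptor Tgfbr2 (4.58, SE 0.45), and none was lower. Of 4 proteoglycans and of 4 receptors 1 each was higher, Sdc1 (1.02) and Mrc2 (2.80).

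Against immune cells, all 19 tested genes were higher in the Dcn/Col3a1-gated cells, by log2 fold changes of 3.16 (Col27a1) to 11.00 (Col5a2), where 9.11% of all genes were called higher. The filter keeps a gene that is high enough in 1 kind of cell. Members such as Col5a2 (34 UMIs in immune cells) and Col4a5 (20) thus entered through the gated cells. The count therefore leans toward genes higher in the gated cells and is a description.

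The treatment comparisons in tumor cells turned on 1 gene. After medium R848-BPD against saline, 1 of 27 tested matrix genes passed, Fbln2, and it was lower, where 0.724% of all genes passed (75 of 10353, edgeR quasi-likelihood test, adjusted p under 0.05). Between medium R848-BPD and free R848 none of the 27 passed, with 0.270% of all genes (28), while 6 of the 27 had an unadjusted p under 0.05 and DESeq2 called 1, Fbln2. Between free R848 and saline none of the 27 passed and 0% of all genes, while 4 of the 27 and 662 genes had an unadjusted p under 0.05 and DESeq2 called 0 of the 27 and 7 genes. The median log2 fold change of the 27 was -0.28 for medium R848-BPD against saline, with 0.00 over all genes, and 22 of the 27 had a negative sign. For free R848 against saline the values were the same, -0.28 with 22 of 27 negative (-0.01 over all genes), and for medium R848-BPD against free R848 the median was -0.03 with 14 of 27 negative. Both comparisons with medium R848-BPD share its 2 tumors, and both comparisons with saline share its 3.

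Fbln2 (chr6:91212455-91272540, GRCm38) encodes fibulin-2, an extracellular glycoprotein of basement membranes and elastic fibers. Its level in tumor cells was 138, 109 and 148 CPM after saline, 89.7, 64.8 and 70.1 CPM after free R848, and 16.1 and 39.8 CPM after medium R848-BPD. The 3 groups did not overlap, with saline highest and medium R848-BPD lowest. The fall against saline was -2.15 on the log2 scale (SE 0.28, edgeR adjusted p = 0.00461, n = 3 and 2), and it passed in all 18 alternatives run, at -3.00 to -1.74. The differences between medium R848-BPD and free R848 (-1.35, adjusted p = 0.0674) and between free R848 and saline (-0.79, adjusted p = 0.651) did not pass. After thinning, Fbln2 was found in 5.79%, 8.02% and 11.3% of tumor cells after saline, in 6.83%, 5.81% and 6.98% after free R848 and in 0.847% and 1.62% after medium R848-BPD. By this measure free R848 lay within the saline range and medium R848-BPD below both. In immune cells it lay between 0.320 and 1.47 CPM in all tumors, and the response to medium R848-BPD against free R848 did not differ between tumor and immune cells past the adjustment (-2.22, SE 0.61, adjusted p = 0.269, where 11 genes of 10977 passed). The summed fibroblast markers in the tumor cells were 647 to 1201 CPM after saline, 671 to 792 after free R848 and 611 to 795 after medium R848-BPD, with all 10 detected. That list includes the members Col1a1 and Col1a2, and Pcolce, at 343 CPM in pooled tumor cells. Its sum is therefore no measure of fibroblasts within the tumor-cell gate. The summed macrophage markers, 6 of 7 detected, were 56.8 to 139, 72.6 to 79.6 and 38.8 to 51.3 CPM in the same order. The MC38 or epithelial markers, which include the gate genes Mtap and Rhox5 and of which 5 of 10 were detected, summed to 1834 to 1931, 1986 to 2061 and 1530.4 to 1638 CPM. Medium R848-BPD lay below both other groups in the last 2 sums. Leukocyte markers, 6 of 6 detected, overlapped between the groups, at 32.0 to 115, 40.8 to 62.8 and 32.2 to 44.4 CPM. The part of any of these in the Fbln2 result was not tested.

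**Figure D4:**
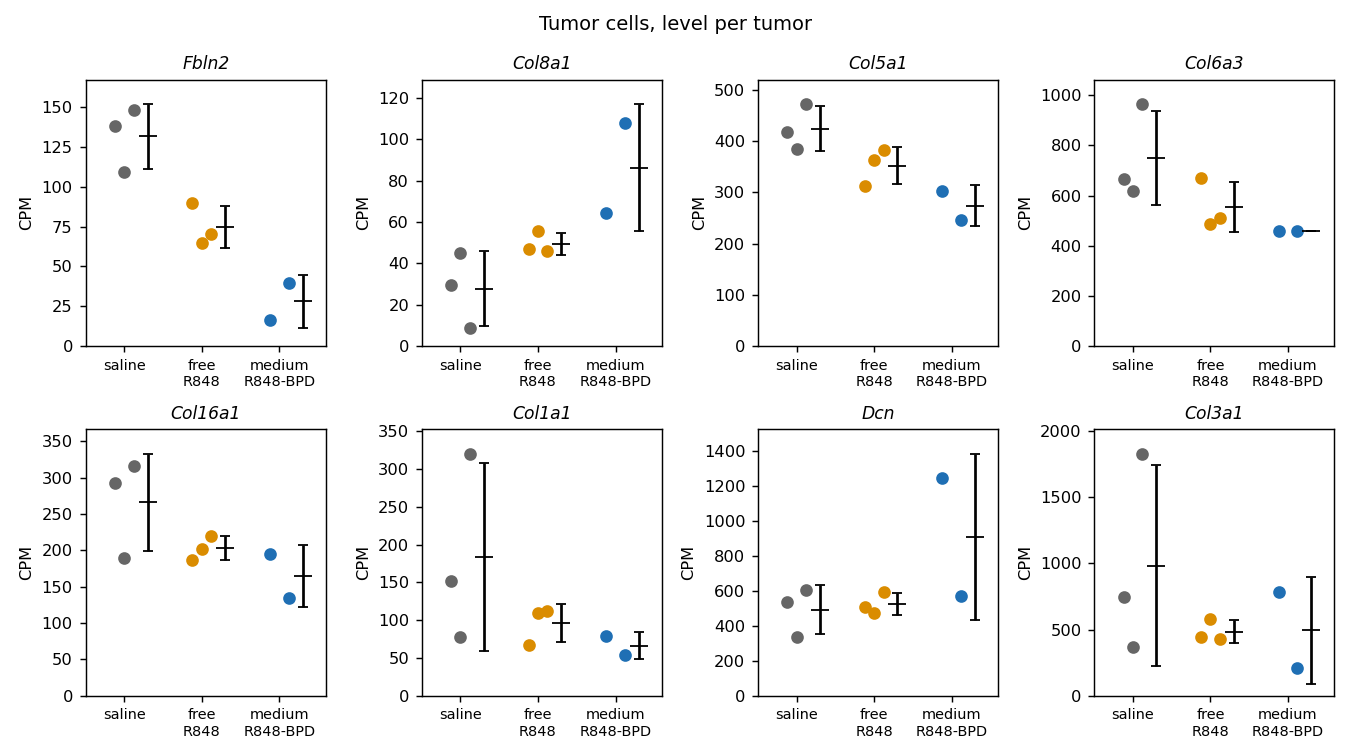
Levels of 8 matrix genes in tumor cells, in CPM (y axis), by treatment (x axis). Each point is 1 tumor, and the bar beside it is the mean with the SD (n = 3, 3 and 2). Fbln2 is the only one of the 8 that passed, and its 3 groups do not overlap, while saline tumor 3 is the highest point of Col1a1 and Col3a1.

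Other members leaned without passing. Col8a1, a short network chain of vessel walls and cornea, was at 29.4, 45.2 and 8.73 CPM after saline, 47.1, 55.4 and 45.7 after free R848 and 64.5 and 108 after medium R848-BPD. The groups did not overlap and medium R848-BPD was highest (1.42, SE 0.32, adjusted p = 0.0628 against saline). Col5a1 was at 418, 384 and 473 CPM after saline, 312, 363 and 383 after free R848 and 303 and 246 after medium R848-BPD, the last below both other groups (-0.65, SE 0.15, adjusted p = 0.0708 against saline). Col6a3 (-0.72, adjusted p = 0.113), Col16a1 (-0.71, adjusted p = 0.188) and Col7a1 (-0.67, adjusted p = 0.268) had negative values. DESeq2 called Col5a1 and Col6a3 beside Fbln2.

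Single tumors weighed on several of these values. Col1a1 in tumor cells was at 152, 78.0 and 320.2 CPM after saline against 78.6 and 53.5 after medium R848-BPD (-1.42, adjusted p = 0.195), and Col3a1 at 749, 369.9 and 1828 against 779.8 and 206, so saline tumor 3 was the high one for both. Dcn was at 1246 CPM in medium R848-BPD tumor 1 and 571 in tumor 2, within the free R848 and saline range of 338 to 604 (0.87, adjusted p = 0.209). Leaving out a medium R848-BPD tumor leaves 1 tumor in that group, whose spread is then assumed to equal that of the other groups. Without medium R848-BPD tumor 1, 10 of the members passed against saline, namely Col3a1, Col4a1, Col5a1, Col6a1, Col6a2, Col7a1, Col8a1, Col16a1, Fbln2 and Plod2, and 442 genes in all. Without medium R848-BPD tumor 2, Fbln2 and Dcn passed. Without saline tumor 2, Col1a1, Col8a1, Col16a1 and Fbln2 passed. Sparc (-0.02, SE 0.13) and Serpinh1 (-0.14, SE 0.12) had the narrowest errors in this comparison among the members named here.

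Of the other listed matrix genes in tumor cells, 2 passed for medium R848-BPD against saline. P4ha2, a prolyl hydroxylase subunit that makes the collagen helix stable, was at 209.9, 113 and 218 CPM after saline and 80.7 and 65.9 after medium R848-BPD (-1.30, SE 0.24, adjusted p = 0.0289), the only one of 22 processing genes tested that passed. P4ha2 passed in 12 of 18 alternatives and was lost without saline tumor 1 (edgeR adjusted p = 0.136) or 3 (0.0900), medium R848-BPD tumor 2 (0.165) or free R848 tumor 1 (0.0504) or 3 (0.0661), and with only these 2 groups in the fit (0.106). Cyr61 (Ccn1), a secreted matricellular protein, was at 494, 635 and 759.8 CPM against 1487 and 1219 (1.09, SE 0.18, adjusted p = 0.0143), the only one of 24 glycoproteins. It passed in 16 of 18 alternatives, and not without saline tumor 1 (0.0634) or with only these 2 groups (edgeR adjusted p = 0.0599). None of the 5 proteoglycans, 6 receptors and 17 TGF-beta pathway genes passed, and none of the lists had a gene that passed in the other comparisons in tumor cells.

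The Dcn/Col3a1-gated cells numbered 5, 4 and 5 after saline, 4, 5 and 4 after free R848, and 11 and 30 after medium R848-BPD. They made up 0.456%, 0.357% and 0.478% of Dcn/Col3a1-gated plus immune cells after saline, 0.561%, 0.489% and 0.605% after free R848, and 1.01% and 4.65% after medium R848-BPD. The groups did not overlap, and medium R848-BPD tumor 2, with 30 cells, stood far above tumor 1, with 11. The exact 95% binomial interval (Clopper-Pearson, counting error only) was 3.16% to 6.57% in tumor 2 and 0.505% to 1.80% in tumor 1. The latter overlaps the intervals of all saline and free R848 tumors, the highest of which ends at 1.54%. Medium R848-BPD tumor 2 also stood apart in its other cells, with 30.3% tumor cells and 50.3% immune cells among its kept cells, against 4.91% to 15.8% and 69.6% to 82.4% in the other tumors. Set against tumor cells instead, a denominator chosen after the data were seen, the gated cells made up 3.97%, 2.09% and 7.46% of Dcn/Col3a1-gated plus tumor cells after saline, 2.42%, 2.82% and 4.44% after free R848, and 8.53% and 7.50% after medium R848-BPD. On that scale medium R848-BPD tumor 2 lay next to saline tumor 3, and the mean differed by 3.51 points from saline and 4.78 points from free R848 (exact permutation p = 0.2 for each). Over gated plus immune cells, mean shares differed by 2.40 points from saline and by 2.28 points from free R848. The exact permutation p was 0.2 for each. It is the 1-sided p doubled, and the smallest that this test gives for 2 against 3 tumors. Without medium R848-BPD tumor 2 the differences were 0.580 and 0.458 points. Free R848 and saline differed by 0.121 points (exact permutation p = 0.1, the smallest that 3 against 3 allow). The Col1a2-rich cells alone were 0.182%, 0.179% and 0%, then 0.281%, 0.391% and 0.151%, then 0.918% and 4.19%. Dcn and Col3a1 chose these cells, so a cell with more of either passed more easily. The shares also rest on how the CD45- fraction was loaded.

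Within these cells only medium R848-BPD against saline could be fitted, over 2 tumors of each group. None of 27 tested matrix genes passed and 0% of 1961 genes did. At an unadjusted p under 0.05 there were 155 genes and 1 member, Plod2 (-1.48, SE 0.58, adjusted p = 0.591), and DESeq2 called 0 genes. The median log2 fold change of the 27 was 1.01 against -0.07 over all genes. In simulated counts of this comparison 3.50% of 200 genes changed 4-fold were recovered, so most changes of that size would not have been detectable. Col1a1 was at 4458, 1178 and 597 CPM after saline and at 18088 and 9488 after medium R848-BPD. Lox was at 1357, 266 and 0 CPM against 3076 and 3448. The medium R848-BPD values of both lay above those of saline, as did the count of Col1a2-rich cells among the gated cells, 37 of 41 against 4 of 14. Markers of other cells did not all move the same way in the gated cells. Leukocyte markers, 6 of 6 detected, summed to 166 to 1026 CPM after saline and 37.9 to 125 after medium R848-BPD. MC38 or epithelial markers, 5 of 10 detected, summed to 114 to 256 and 47.3 to 89.2. Rhox5 among these was at 55.4, 114 and 199 CPM after saline and at 0 and 5.94 after medium R848-BPD. Mtap, the other gate gene among them, was at 83.1, 0 and 56.9 and at 47.3 and 71.3. The groups did not overlap in the 2 sums or in Rhox5, but did in Mtap. Osteoclast-like markers, 4 of 4 detected, lay higher after medium R848-BPD, at 199 to 388 and 1605 to 1978. So did endothelial markers, 2 of 7 detected, at 0 to 27.7 and 59.4 to 75.7. Macrophage (85.3 to 2014 and 161 to 256) and pericyte or smooth muscle markers (0 to 166 and 18.9 to 29.7) overlapped. The part of these cells in the Col1a1 and Lox values was not tested.

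Immune cells held few UMIs of these genes. Of 27 members of at least 50 CPM somewhere and with a ratio to tumor cells, 16 had a pooled level in immune cells under 2% of that in tumor cells, at 0.912% for Col6a1, 0.877% for Col5a1, 0.944% for Sparc and 0.883% for Serpinh1, close to Pcolce (0.863%). No expression by immune cells is read from those values. Other members stood above that ratio, among them Plod2 at 4.30% and Col14a1, with 899 UMIs in immune cells against 5 in tumor cells. Col15a1 likewise had 193 UMIs in immune cells and 3 in tumor cells.

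Myeloid and lymphoid cells were told apart within the immune gate by Csf1r, C1qb and Lyz2 (5063 cells) or T and NK cell genes (1205 cells), with median UMIs of 5161.0 and 5245.0. Of the members, 4 were kept by the filter for a test and all 4 passed, where 71.6% of all genes passed in either direction. Sparc, Serpinh1 and Col6a2 held 15, 17 and 21 UMIs in lymphoid cells and entered through their myeloid level (439, 278 and 233). Plod2 entered through its lymphoid level (330 UMIs against 96). The count that passed is therefore a description. For Sparc (3.24, SE 0.33), Serpinh1 (2.25, SE 0.39) and Col6a2 (1.73, SE 0.30) the myeloid sums were higher, but all 3 stood under 1% of the tumor-cell level in immune cells, and expression by myeloid cells is not read from them. After thinning, Sparc was found in 1.61% of myeloid and 0.0899% of lymphoid cells, and the source of these UMIs was not tested. Plod2, a lysyl hydroxylase that sets the kind of collagen cross-link, was higher in lymphoid cells (-3.43, SE 0.22, adjusted p = 1.3e-08), at 30.3 to 54.3 CPM over the 8 tumors (median 42.9) against 1.59 to 5.23 in myeloid cells. The ranges of the lymphoid and the myeloid cells did not overlap. In NK-gated cells Plod2 was at 32.6 to 86.4 UMIs per 1000000 UMIs over the 8 tumors (median 37.9) and in T-gated cells at 8.62 to 56.9 (median 16.7), and these ranges overlapped. After thinning, 4.27% ± 1.13 of lymphoid and 0.355% ± 0.240 of myeloid cells held a UMI of Plod2 (SD, n = 8), and 19.3% and 1.61% did at full depth.

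Col14a1, a fibril-associated chain (chr15:55307750-55520803, GRCm38), was found mainly in myeloid cells among the immune cells. They held 859 UMIs of it in 411 of 5063 cells, with up to 18 in 1 cell, while lymphoid cells held 3 UMIs. The cells with Col14a1 held Col1a2 about as often as those without, in 2.43% and 2.36%. They more often held the macrophage gene Fcrls, in 67.2% against 22.0%, and the cell cycle gene Birc5, in 30.7% against 9.11%. Their median UMI count was also higher, 7477.0 against 5030.5, and how far depth accounts for these shares was not tested. Col15a1, a basement membrane chain, had 183 UMIs in 162 myeloid cells and none in lymphoid cells.

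Across treatments, no matrix gene passed in the immune cells as a whole. The counts were 0 of 22 tested for medium R848-BPD against free R848 (0.370% of all genes passed), 0 of 22 for free R848 against saline (0.00861%) and 0 of 22 for medium R848-BPD against saline (1.82%). At an unadjusted p under 0.05 there were 2, 2 and 6 of the 22, and DESeq2 called 1, 0 and 3. Nearest to passing against saline were Col15a1 (-2.29, adjusted p = 0.0531), Col1a2 (2.01, adjusted p = 0.0607), Col4a2 (2.23, adjusted p = 0.0841) and Col14a1 (-2.08, adjusted p = 0.102). Of the other lists, Ecm1 (1.97, adjusted p = 0.00394) and the heparan sulfate proteoglycan Gpc1 (1.31, adjusted p = 0.0254) rose and Matn2 (-2.41, adjusted p = 0.0350) fell against saline, and none of 16 processing, 10 receptor and 15 TGF-beta genes passed.

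In the myeloid cells alone, a comparison added after the data were seen, 2 members passed against saline and 1 against free R848. Col15a1 was at 4.65, 7.59 and 7.94 CPM after saline, 6.19, 7.48 and 9.26 after free R848, and 1.67 and 1.34 after medium R848-BPD. The 2 medium R848-BPD tumors lay below all others, and Col15a1 fell against saline (-2.09, adjusted p = 0.0319, where 4.21% of all genes passed) and against free R848 (-2.28, SE 0.41, adjusted p = 0.0489, where 0.827% passed). Col4a2 was at 0.734, 0.646 and 0.318 CPM after saline, 1.08, 1.25 and 0.421 after free R848, and 3.76 and 3.57 after medium R848-BPD, above all others (2.59, SE 0.56, adjusted p = 0.0395 against saline). These are small counts, 45 UMIs of Col4a2 in 41 myeloid cells. Over 17 alternatives Col15a1 passed in 10 against saline (-2.29 to -1.88, adjusted p up to 0.227) and in 8 against free R848 (adjusted p up to 0.395), and Col4a2 passed in 5 (2.35 to 2.83, adjusted p up to 0.247). Without medium R848-BPD tumor 1 or 2 neither gene passed in either comparison (against saline, edgeR adjusted p = 0.134 and 0.227 for Col15a1 and 0.183 and 0.247 for Col4a2), nor did they without any 1 of the free R848 tumors. Without saline tumor 1, 2 or 3 Col4a2 did not pass (0.0916, 0.0525 and 0.0549). With the replicate number as a block neither passed, at 0.0863 for Col15a1 and 0.116 for Col4a2 against saline. Col4a1, the partner chain of Col4a2, had the opposite sign (-1.60 against saline). Between free R848 and saline no member passed (0 of 18, with 0.0188% of all genes). Summed fibroblast markers in the myeloid cells were 95.0 to 284 CPM after saline, 93.4 to 175 after free R848 and 279.7 to 351 after medium R848-BPD, with all 10 detected. Pdpn alone was at 56.8 to 303 CPM over the 8 tumors, and without Pdpn and Thy1, which leukocytes also express, the other 8 markers summed to 7.63 to 14.7, 12.7 to 18.8 and 13.8 to 29.0 CPM. These 8, which include the members Col1a1 and Col1a2, overlap between free R848 and medium R848-BPD. The T and NK markers, of which 2 of 6 were detected and Nkg7 held nearly all UMIs, summed to 3.72 to 5.38, 1.26 to 7.27 and 10.2 to 13.9 CPM, and the macrophage markers to 14939 to 15842, 12723 to 13214 and 11786 to 12732 CPM. Endothelial markers, 7 of 7 detected, summed to 89.8 to 105, 108 to 142 and 129 to 138 CPM. In this sum medium R848-BPD lay above saline and overlapped free R848. The part of these markers in the Col15a1 and Col4a2 results was not tested.

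Col14a1 in myeloid cells was at 55.5, 31.2 and 46.1 CPM after saline, 15.6, 23.7 and 9.68 after free R848, and 20.1 and 1.34 after medium R848-BPD. All 3 saline tumors lay above the other 5, and the free R848 and medium R848-BPD tumors overlapped. The 2 medium R848-BPD tumors differed most from each other, with 96 UMIs in tumor 1 and 3 in tumor 2. No difference of Col14a1 passed in the myeloid cells.

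**Figure D5:**
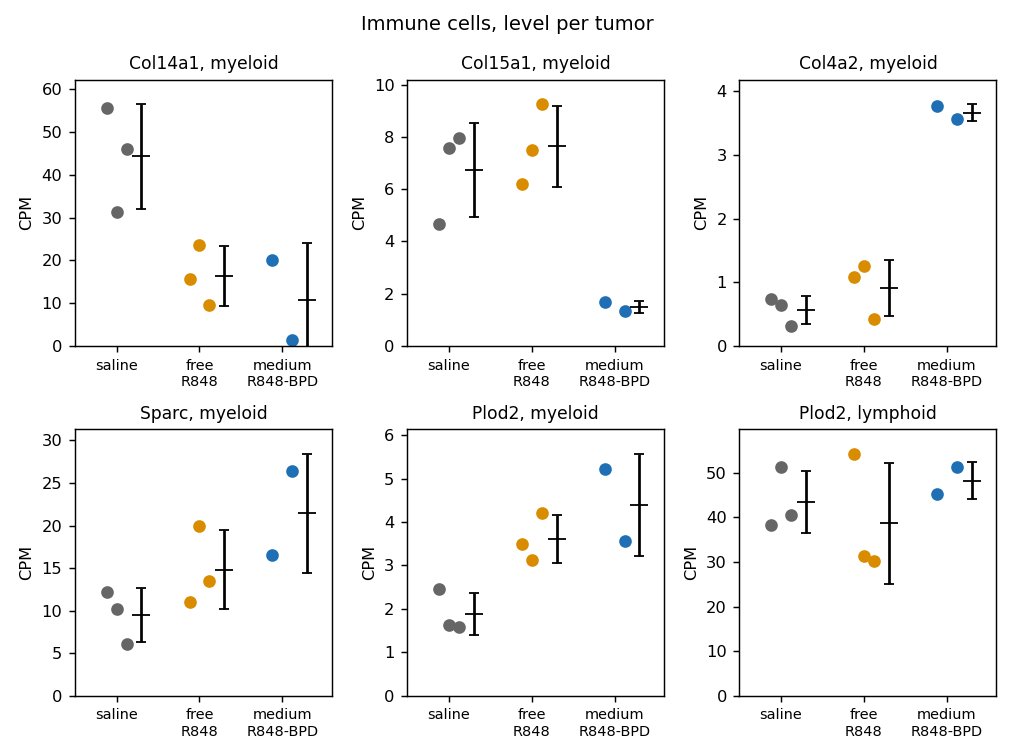
Levels of Col14a1, Col15a1, Col4a2, Sparc and Plod2 in myeloid-gated cells and of Plod2 in lymphoid-gated cells, in CPM (y axis), by treatment (x axis). Each point is 1 tumor and the bar beside it the mean with the SD (n = 3, 3 and 2), where the bar of Col14a1 after medium R848-BPD is clipped at 0. Col15a1 is lowest and Col4a2 highest after medium R848-BPD, and Col14a1 is highest after saline.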

How the data were processed

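Single cells of 8 MC38 tumors were profiled on Seq-Well arrays. What the authors deposited for each tumor is a table of UMI counts, not normalized. The submitters' processing notes name bcl2fastq and mm10, and the aligner is not given in the sources used here. Positions are from GENCODE vM21 (GRCm38) and promoter sequences from RefSeq (GRCm38.p6).

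Barcodes passed with over 400 but under 10000 genes, under 50000 UMIs and no more than 15% mitochondrial UMIs, and were gated on the named genes. Scrublet (scanpy 1.11.5) marked 67 cells (0.678%), which were kept. Counts were summed per tumor and kind of cell, for tumors with at least 10 such cells (5 for Dcn/Col3a1-gated cells), and tested with edgeR 4.0.16 in R 4.3.3 (TMM, filterByExpr, quasi-likelihood F test, Benjamini-Hochberg, 0.05). Treatments shared 1 fit, and kinds of cell were compared with the tumor as a block. A standard error is the absolute log2 fold change divided by the root of F. Shares of cells were compared after thinning to 1000 UMIs, or by exact permutation over tumors (scipy 1.17.1). The labels give replicate numbers only, and by the study's methods cells were loaded mouse by mouse, so each tumor is taken as 1 mouse.

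The members and lists were chosen with earlier results of these data known. Per-tumor values and tests are printed for members with a mean of at least 50 CPM in 1 of the 3 kinds of cell or called in a treatment comparison, others are given by range and count, and at most 4 genes are named per other list and comparison. Col4a6, Col13a1, Fcrls and Birc5 were named after their values were seen. Alternatives were RLE factors, DESeq2 1.42.0, no filter on low counts, all barcodes, stricter gates, no doublets, no shared barcodes, only the groups compared, equal cells per tumor, a replicate block and leaving out each tumor. In simulated counts with 200 genes changed 4-fold, 96.5% were recovered for medium R848-BPD against free R848 in tumor cells (10353 genes), 85.5% in immune cells (11609 genes) and 84.5% for Dcn/Col3a1-gated against tumor cells (7108 genes).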

Additional observations from a re-analysis of the deposited data

Results flagged for a closer look

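Col13a1, a transmembrane collagen chain, had 16 of its 20 UMIs in kept cells outside the 3 gates, in data that no comparison used. They lay in 2 cells of 2 tumors, at a median of 8395.0 UMIs per cell. The cell with 15 of them also held 20 UMIs of Pecam1 and 27 of Cdh5, both endothelial genes, 3 of Kit and 1 of Mtap, and the cell with 1 held 8 of Tyrobp, a leukocyte gene. Neither held Ptprc. Tumor cells and Dcn/Col3a1-gated cells held 0.

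P4ha2, the prolyl hydroxylase subunit, responded differently in tumor and immune cells to medium R848-BPD against free R848, by -1.81 on the log2 scale in the test of the difference itself (edgeR adjusted p = 0.0112, with the tumor as a block). In tumor cells it was at 128, 131 and 122 CPM after free R848 and at 80.7 and 65.9 after medium R848-BPD. In immune cells it was at 6.67, 7.84 and 9.14 CPM and at 17.4 and 14.5. The difference passed in 10 of 15 alternatives run, at -1.96 to -1.69. It was lost without any 1 of the 5 tumors of these 2 groups, at adjusted p of 0.0869, 0.0939 and 0.0662 without free R848 tumor 1, 2 or 3 and of 0.0506 and 0.0688 without medium R848-BPD tumor 1 or 2 (edgeR), so the call rests on all 5.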

How the results depend on the processing

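Without the filter on low counts the number of members called was 6 (medium R848-BPD against free R848), 4 (free R848 against saline) and 11 (medium R848-BPD against saline) in tumor cells, 1, 1 and 6 in immune cells, 27 for Dcn/Col3a1-gated above tumor cells, 35 for Dcn/Col3a1-gated above immune cells and 15 for myeloid above lymphoid cells (3 with the filter). With DESeq2 it was 1 and 3 for medium R848-BPD against free R848 and saline in tumor cells, and 1 and 3 in immune cells. In the myeloid cells, in fits chosen after the data were seen, it was 2, 2 and 7 without the filter, 0 for medium R848-BPD against free R848 with all barcodes, without shared barcodes or with the replicate block, and for medium R848-BPD against saline 1 without the cells marked by Scrublet and 0 with only the 2 groups or the replicate block. Leaving out 1 tumor gave 0 to 1 against free R848 and 0 to 2 against saline there. With all barcodes, 2 members were called in tumor cells for medium R848-BPD against saline. With the replicate number as a block 3 were called there (Col8a1, Fbln2 and Dcn, among 102 genes). Same-numbered tumors correlated at -0.18 to 0.33 in tumor cells and -0.16 to 0.24 in immune cells over 7 pairs each, so the numbers were not taken as pairs. Leaving out 1 tumor gave 0 to 2 members for medium R848-BPD against free R848 and 1 to 10 against saline in tumor cells, and 0 to 1 against saline in immune cells (Col14a1 without medium R848-BPD tumor 1 and Col15a1 without saline tumor 1). These fits without a medium R848-BPD tumor leave 1 tumor in that group, assumed to vary like the others. The cause of these shifts was not tested. Over Dcn/Col3a1-gated plus tumor cells, a denominator chosen after the data were seen, the share of Dcn/Col3a1-gated cells differed between free R848 and saline by -1.28 points (exact permutation p = 0.7), against 0.121 over Dcn/Col3a1-gated plus immune cells, and the cause was not tested.

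No fold change reversed its sign while called. Of the fold changes recomputed, 1470 kept their direction and side of the threshold, 48 passed newly and 56 no longer passed. Shares of cells moved with the thinning depth in 118 cases and not in 68. In the Dcn/Col3a1-gated cells, medium R848-BPD against free R848 and free R848 against saline could not be fitted, since too few tumors held 5 such cells, nor could the stricter gate or the fits without a medium R848-BPD tumor or without saline tumor 1 or 3. The 2 medium R848-BPD tumors and the 68 Dcn/Col3a1-gated cells limit every statement on them.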
